A study of Mus musculus with 18 samples.

Results

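The 7 genes described here, Rgs5, Cspg4, Kcnj8, Abcc9, Mcam, Ndufa4l2 and Higd1b, are pericyte markers and were taken by symbol from the 23238 gene symbols of 18 mouse count tables. All 7 symbols were found in every table. The names come from other tissues and do not by themselves show that a read came from a pericyte, so the levels of the 7 genes are set beside those of other mural, muscle, fibroblast and endothelial genes.

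Pericytes are the mural cells that sit in the basement membrane of capillaries, in direct contact with the endothelium, and are recruited by endothelial PDGF-B acting on their receptor PDGFRβ. They help to set capillary tone, permeability and stability, and in the intestinal villus they line the blood capillary plexus that lies under the epithelium. Among the 7 genes, Kcnj8 and Abcc9 encode the pore and the regulatory subunit of the ATP-sensitive potassium channel of vascular mural cells, Rgs5 encodes a protein that shortens G protein signalling, Cspg4 and Mcam encode the surface proteins NG2 and MCAM, and Ndufa4l2 and Higd1b encode small mitochondrial proteins linked to low oxygen.

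The libraries were made from cells sorted from the small intestine of adult C57BL/6J mice. One fraction, the intestinal stromal cells (IntSCs), was isolated on the Tomato reporter once leukocytes, epithelial cells and CD31+ cells had been depleted. The other, the lymphatic endothelial cells (LECs), was sorted after depletion of leukocytes and epithelial cells only. The study calls them small intestinal LECs and also lacteal LECs, lacteals being the lymphatic capillaries of the villi. Its methods name no step that removes the submucosa, which holds lymphatic vessels too. The WT groups, 6 libraries of IntSCs and 4 of LECs, carried PDGFRb+-CreERT2-Tomato+, a tamoxifen-inducible Cre under the Pdgfrb promoter with its reporter. The KO groups, 5 libraries of IntSCs and 3 of LECs, carried the same transgenes and also Lats1f/f Lats2 f/f, the floxed alleles of the kinases that restrain YAP and TAZ. Pdgfrb is active in pericytes, in smooth muscle and in many fibroblasts, so the sort did not isolate pericytes, and the Cre was not directed at the LECs. The study describes about as many mice per group as there are libraries, pooled over several independent experiments. The labels do not tie a library to a mouse or an experiment, so the p-values below measure the spread between libraries, and differences between experiments could not be taken into account.

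Total counts ranged from 5361250 to 10549233 reads per library, and 3 reads corresponded to between 0.284 and 0.56 CPM, the counts of a gene scaled to a common library size. The method counts the 3′ end of a transcript. Levels are CPM on one TMM scale over all libraries. They are tested between groups and not between genes, and sums or rankings over genes describe counts only. The counts of Lats1 and Lats2 did not check the labels: in IntSCs Lats1 was 17.5 ± 10.3 CPM (SD, n = 6) in WT and 16.03 ± 3.28 CPM in KO (SD, n = 5), and Lats2 was 72.8 ± 23.7 and 114 ± 20.3 CPM, with log2 fold changes of -0.12 and 0.65 (edgeR adjusted p = 0.987 and 0.252), and a 3′ read can still arise from a transcript that has lost inner exons. KO is therefore used for the libraries labelled KO. The share of Rn45s, which comes from ribosomal RNA, ranged from 7.02 to 24.4% of reads, and leaving it out changed no call among the 7 genes. The sorted cell types matched their labels by markers, since the 10 LEC markers summed to between 9453 and 15207 CPM in LECs and to between 297 and 720 CPM in IntSCs. In bulk RNA, fewer pericytes, less of a transcript in each pericyte and a change in reads from other sorted cells cannot be told apart. In separate single-cell data the study reports that the abundance of its cell clusters, mural cells among them, did not change significantly.

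To ask how LATS1/2 deletion was reflected in the pericyte genes of the IntSCs, KO IntSCs were compared with WT IntSCs. Of the 7 genes, 1 passed the threshold (edgeR adjusted p under 0.05): Kcnj8, which was lower in KO. The background share was 1.47%, or 183 of 12421 genes tested. Abcc9 was also lower and Mcam higher by similar factors, each with an adjusted p just above the threshold, while Rgs5, Cspg4, Ndufa4l2 and Higd1b did not pass it. DESeq2 called 3 of the 7 genes against a background of 3.03%, and limma-voom 2 against 1.88%. The median log2 fold change of the 7 genes was -0.59, against 0.0026 for all genes tested, with 5 genes below 0 and 2 above. In 2 of the 7 genes, Kcnj8 and Abcc9, every KO library lay outside the WT range, as in 2.83% of all genes tested (352 of 12421).

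Kcnj8, the pore of the channel, ranged from 21.4 to 47.6 CPM in WT IntSCs with a median of 36.8 CPM. The KO IntSC libraries 1 to 5 held 14.9, 18.6, 13.6, 10.7 and 9.69 CPM. All 5 KO libraries were thus below the lowest WT library. The means were 36.0 ± 11.3 CPM (SD, n = 6) in WT and 13.5 ± 3.55 CPM in KO (SD, n = 5), a 2.66-fold difference, and the log2 fold change was -1.41 ± 0.35 (SE, adjusted p = 0.0472, edgeR). The direction held in all 21 alternatives tried, but the adjusted p, between 0.00502 and 0.151 across them, stayed under 0.05 in only 7. When each of the 11 libraries was left out in turn, the call remained in 2 cases, without WT IntSC 3 (adjusted p = 0.0309) and without WT IntSC 6 (adjusted p = 0.0459), and was lost in the other 9, with adjusted p up to 0.133.

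Abcc9 encodes the sulphonylurea receptor that surrounds this pore. It ranged from 40.7 to 79.2 CPM in WT IntSCs with a median of 55.3 CPM, and the KO libraries 1 to 5 held 20.4, 24.8, 11.4, 38.3 and 29.1 CPM. Again no KO library reached the lowest WT library. The means were 57.3 ± 13.9 CPM (SD, n = 6) in WT and 24.8 ± 10 CPM in KO (SD, n = 5), 2.31-fold lower, with a log2 fold change of -1.21 ± 0.31 (SE, adjusted p = 0.0556, edgeR). This missed the threshold, and across the alternatives the adjusted p lay between 0.0132 and 1, under 0.05 in 6 of 21. Although the KO libraries lay below the WT range for both subunits, no correlation between their levels was detected among libraries of the same group (Pearson r = -0.23, permutation p = 0.496, Spearman rho = -0.22, permutation p = 0.522, n = 11, adjusted p = 0.947 and 0.835 over 21 pairs), and r was 0.10 without the 2 libraries farthest from the median of Kcnj8.

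In the mouse genome (RefSeq, assembly GRCm38.p6) both channel genes lie on the minus strand of chromosome 6, Kcnj8 at chr6:142564837-142571614 and Abcc9 at chr6:142587862-142702766, 16247 bases apart. Their paralogues Kcnj11 and Abcc8, the channel pair known from pancreatic beta cells, lie next to each other on chromosome 7. Those were near the detection limit in IntSCs: Kcnj11 was at 0 in 4 of the 6 WT and 2 of the 5 KO libraries and did not exceed 7.45 CPM, and Abcc8 was at 0 in 5 of the 6 WT libraries and did not exceed 2.04 CPM. YAP and TAZ act on DNA through TEAD factors and Notch through RBPJ. The promoters of the channel genes, and for contrast that of Mcam, which has the largest positive fold change of the 7, were therefore searched on both strands for the TEAD motif GGAATG, the RBPJ motif TGGGAA and the CArG box of serum response factor. Promoters, from 250 bases before to 50 bases after the start site, were listed for 5 of the 7 genes. The promoters, written 5′ to 3′ on the strand of the gene with matches in capitals, are Kcnj8 at chr6:142571565-142571864 (minus), Abcc9 at chr6:142702225-142702524 (minus) and Mcam at chr9:44134408-44134707 (plus), from RefSeq, GRCm38.p6.
Kcnj8: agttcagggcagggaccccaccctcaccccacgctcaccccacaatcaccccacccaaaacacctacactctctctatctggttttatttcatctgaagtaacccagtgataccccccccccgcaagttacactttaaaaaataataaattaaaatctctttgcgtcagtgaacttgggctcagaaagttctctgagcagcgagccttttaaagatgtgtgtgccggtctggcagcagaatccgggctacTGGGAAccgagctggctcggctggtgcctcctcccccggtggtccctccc
Abcc9: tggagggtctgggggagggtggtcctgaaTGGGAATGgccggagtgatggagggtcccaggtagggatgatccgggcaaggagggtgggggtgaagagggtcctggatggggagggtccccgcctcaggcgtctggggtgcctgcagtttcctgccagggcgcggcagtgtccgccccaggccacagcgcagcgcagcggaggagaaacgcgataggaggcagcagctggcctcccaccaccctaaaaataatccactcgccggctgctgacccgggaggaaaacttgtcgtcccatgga
Mcam: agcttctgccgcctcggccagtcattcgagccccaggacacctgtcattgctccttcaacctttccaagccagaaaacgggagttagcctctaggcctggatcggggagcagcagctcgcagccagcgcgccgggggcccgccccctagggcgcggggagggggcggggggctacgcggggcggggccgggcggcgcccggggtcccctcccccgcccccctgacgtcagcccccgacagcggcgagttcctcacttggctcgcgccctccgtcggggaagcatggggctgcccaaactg
The capitals in Kcnj8 are an RBPJ match that begins at position 1, the start site. The Abcc9 window is set on a start site at position 142702274 of chromosome 6, which lies 492 bases inside the outermost end of the gene given above, and its positions count from that site. The capitals in Abcc9 are a TEAD match at position -219 that overlaps an RBPJ match at position -221, so the run of capitals holds both. No match to these motifs was found in the windows of Mcam, Rgs5 and Cspg4, and no CArG box in any of the 5. The study gives the shorter GGAAT as the TEAD consensus. That sequence was not searched, so the TEAD results hold for the longer motif only. The TEAD motif occurs in 14.7%, the RBPJ motif in 25.6% and the CArG box in 1.63% of the 32851 promoters listed for all genes, so such letters are common and say nothing of binding.

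Of the surface proteins, Mcam, a cell adhesion molecule of the immunoglobulin superfamily that endothelial cells also carry, was the member that stood higher in KO. It ranged from 17.5 to 68.9 CPM in WT IntSCs with a median of 45.7 CPM, and the KO libraries 1 to 5 held 60.7, 73.8, 140.1, 113 and 131 CPM. Of the KO libraries, 4 of 5 were above every WT library and KO IntSC 1 lay within the WT range. The means were 43.7 ± 22.6 CPM (SD, n = 6) and 104 ± 35.0 CPM (SD, n = 5), with a log2 fold change of 1.25 ± 0.34 (SE, adjusted p = 0.0756, edgeR). The adjusted p passed 0.05 with 3 of 21 alternatives, among them DESeq2 (0.0264). Endothelial genes overlapped between the groups but reached higher sums in KO. The 9 pan-endothelial markers summed to between 480 and 603 CPM in WT IntSCs and to between 588 and 1289 CPM in KO IntSCs. Of the 9, 8 were higher in WT LECs than in WT IntSCs. Esam was lower there (88.2 against 159.5 CPM) and was 295 CPM in KO IntSCs, so the sum does not measure endothelial cells alone. The part of endothelial cells in the level of Mcam was not tested.

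Cspg4, the chondroitin sulphate proteoglycan NG2 of pericytes and immature mural cells, ranged from 32.45 to 86.5 CPM in WT IntSCs with a median of 70.6 CPM. In KO libraries 1 to 5 it was 38.3, 23.0, 77.7, 54.0 and 32.40 CPM. The ranges overlapped, with 2 KO libraries below every WT library. The log2 fold change was -0.59 ± 0.31 (SE, adjusted p = 0.581, edgeR).

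Rgs5, the regulator of G protein signalling most used to mark pericytes, ranged from 53.7 to 161 CPM in WT IntSCs with a median of 104 CPM. In KO libraries 1 to 5 it was 42.4, 128, 33.5, 95.7 and 51.5 CPM, so the groups overlapped although 3 KO libraries lay below the lowest WT library. Means were 105 ± 44.1 CPM (SD, n = 6) in WT and 70.1 ± 40.02 CPM in KO (SD, n = 5), with a log2 fold change of -0.57 ± 0.35 (SE, adjusted p = 0.667, edgeR). No alternative brought Rgs5 or Cspg4 past the threshold, and both had a negative fold change in every one.

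Of the mitochondrial genes, Ndufa4l2, a subunit-like protein of the respiratory chain induced by hypoxia-inducible factor, ranged from 3.52 to 20.9 CPM in WT and from 7.46 to 18.5 CPM in KO IntSCs, with a log2 fold change of 0.09 ± 0.58 (SE, adjusted p = 0.987, edgeR). Its GENCODE vM21 exons share 32 bases at the 3′ end with Shmt2, a serine metabolism gene on the other strand that was at 29.9 ± 11.8 CPM in WT and 25.2 ± 4.97 CPM in KO IntSCs, and since it is not stated whether the counting used strand, reads of these genes cannot be told apart there. Higd1b, of the hypoxia-induced gene family, was at 4.26, 3.10, 34.0, 0, 3.92 and 6.11 CPM in WT libraries 1 to 6 and at 0.26, 3.97, 4.08, 0 and 1.73 CPM in KO libraries 1 to 5. Its log2 fold change of -2.09 ± 1.27 (SE, adjusted p = 0.667, edgeR) rested largely on WT IntSC 3, and without that library it was -0.79 (edgeR adjusted p = 0.940).

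**Figure D1:**
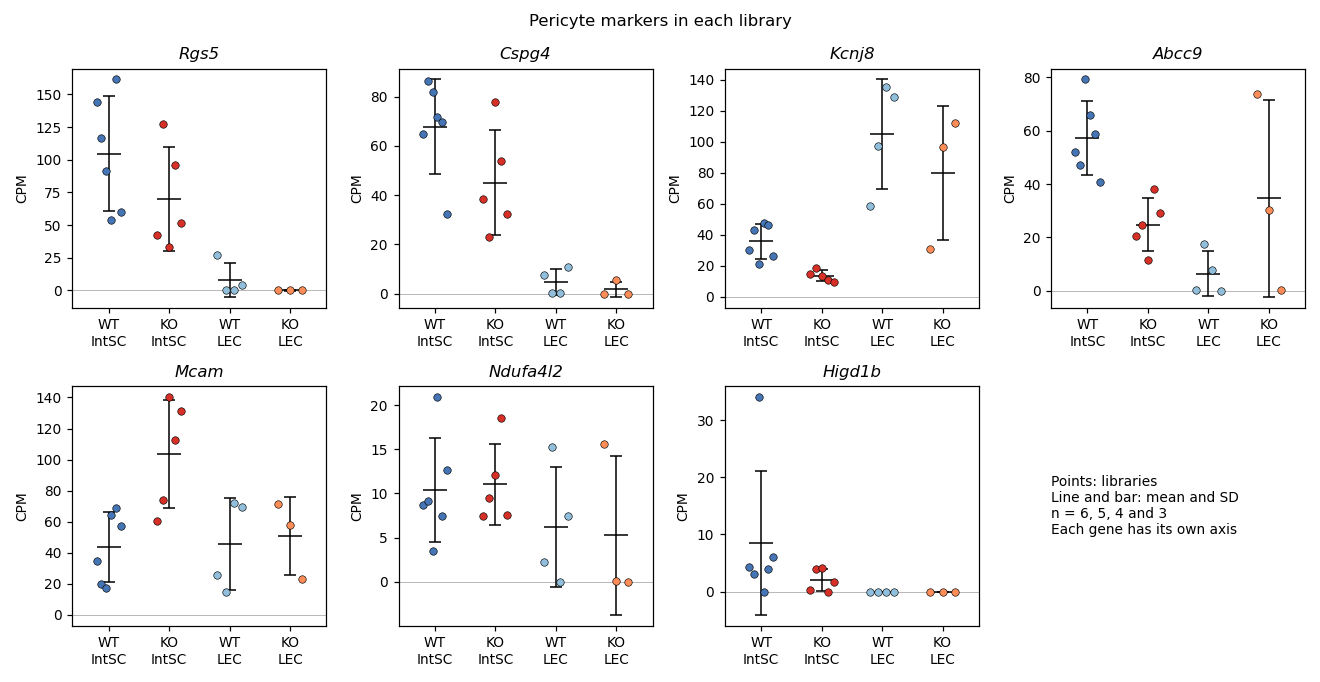
CPM (y axis, linear, a separate scale for each gene) of the 7 pericyte markers in the 6 WT and 5 KO IntSC libraries and the 4 WT and 3 KO LEC libraries. Points are libraries, and the line and bar give mean and SD. The 5 KO IntSC libraries lie below all WT IntSC libraries for Kcnj8 and Abcc9, Kcnj8 is higher in WT LEC than in WT IntSC, and Higd1b has no read in any LEC library.

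In the LECs, KO was set against WT to see whether the same genes differed in cells that the Cre did not target. The fit kept 5 of the 7 genes, and 0 of them passed the threshold, 0 also at an unadjusted p under 0.05, and 0 with DESeq2 or limma-voom. The background share was 0.0658%, or 7 of 10639 genes tested, and 2.9% with DESeq2 and 0.169% with limma-voom. The median log2 fold change of the 5 genes was -0.20, against -0.03 for all genes.

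Kcnj8 was 58.3, 97.3, 136 and 129 CPM in WT LECs 1 to 4 and 31.1, 96.4 and 112 CPM in KO LECs 1 to 3. These overlapped, with a log2 fold change of -0.31 ± 0.48 (SE, adjusted p = 0.9999, edgeR). Abcc9 was 0.19, 17.7, 7.78 and 0 CPM in WT LECs and 73.7, 30.1 and 0.12 CPM in KO LECs, so that 2 of the 3 KO libraries lay above all WT libraries and the third was near 0. Its log2 fold change was 2.48 ± 1.85 (SE, adjusted p = 0.958, edgeR).

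Mcam, which LECs carry as endothelial cells, was between 14.8 and 72.1 CPM in WT and between 23.1 and 71.5 CPM in KO LECs, with a log2 fold change of 0.23 ± 0.67 (SE, adjusted p = 0.9999, edgeR). Cspg4 was at 0 in 2 of the 3 KO LEC libraries and at 5.37 CPM in the other, and between 0.25 and 10.8 CPM in WT LECs. Ndufa4l2 was at 15.3 CPM in 1 WT and 15.6 CPM in 1 KO library and at or under 7.40 CPM in the other LEC libraries. For neither did the fitted difference exceed its SE.

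Rgs5 fell under the filter on low counts in the LEC comparison. It was 27.1, 0.25, 0.19 and 4.20 CPM in WT LECs and 0.42, 0 and 0 CPM in KO LECs. By a two-sided exact permutation test of log2(CPM + 1) the p was 0.171, where 0.0571 is the smallest that 4 against 3 libraries can give. Higd1b had no read in the 38934757 reads of the WT LECs or the 23207867 reads of the KO LECs.

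The place of the 7 genes in the WT tissue was examined by comparing WT LECs with WT IntSCs. Of the 7 genes 5 passed the threshold, at a background of 22.6% (2763 of 12203 genes tested): Rgs5, Cspg4, Abcc9 and Higd1b were lower in LECs, and Kcnj8 was higher. Of these 5, Cspg4 and Kcnj8 passed in all 19 alternatives tried, Higd1b in 18, Rgs5 in 16 and Abcc9 in 7. The median log2 fold change of the 7 was -3.16, against -0.04 for all genes (-0.15 with upper-quartile factors), and it is the same with Higd1b at its bound.

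Rgs5 was 13.2-fold and Cspg4 14.4-fold lower in LECs by their means, with every LEC library below every IntSC library and log2 fold changes of -3.70 ± 1.04 (SE, adjusted p = 0.0190, edgeR) and -3.83 ± 0.89 (SE, adjusted p = 0.00669, edgeR). The Rgs5 value depended on 2 LEC libraries, at -6.04 without WT LEC 1 (edgeR adjusted p = 0.00033) and at -3.49 without WT LEC 4, where the call was lost (edgeR adjusted p = 0.0661). Cspg4 remained past the threshold with each library left out, at -4.63 without WT LEC 4 and -3.44 without WT LEC 3. WT LEC 1 also held the highest sum of the 14 fibroblast genes among LECs, 2489 CPM against 900 to 958 CPM in the other WT LEC libraries. WT LEC 4 held Rgs4, a single gene picked from the other mural genes, at 28.1 CPM where the other WT LECs held at most 0.19 CPM. The other mural genes summed to 421 CPM in WT LEC 4 and to 255 to 390 CPM in the other WT LECs. Its sums of fibroblast and smooth muscle genes, 933 and 512 CPM, lay within the range of the other WT LECs. The part of stromal RNA in these values was not tested. Higd1b, without a read in LECs but also without one in WT IntSC 4, was at least 112-fold higher in WT IntSCs by its mean, taking 3 reads over the whole WT LEC group as the floor. Without WT IntSC 3, a choice made after seeing the data, the bound was 45.5-fold.

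The channel subunits parted between the cell types. Kcnj8 was 105 ± 35.3 CPM in WT LECs (SD, n = 4) against 36.0 ± 11.3 CPM in WT IntSCs (SD, n = 6), and each LEC library exceeded each IntSC library. The log2 fold change was 1.55 ± 0.34 (SE, adjusted p = 0.00333, edgeR) and the call remained in all 19 alternatives. Abcc9 went the other way, 6.40 ± 8.33 CPM in WT LECs (SD, n = 4) against 57.3 ± 13.9 CPM in WT IntSCs, a log2 fold change of -3.16 ± 1.06 (SE, adjusted p = 0.0448, edgeR). That call depended on single libraries. It held without WT LEC 2 (-4.44) or WT LEC 4 (-2.75) but was lost without any of the other 8 libraries, with adjusted p up to 0.105. Of the related channel genes, Kcnj11 was 14.8 ± 15.8 CPM in WT LECs and Abcc8 had no read there.

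Mcam did not pass the threshold, at 45.5 ± 29.6 CPM (SD, n = 4) in WT LECs and 43.7 ± 22.6 CPM in WT IntSCs (SD, n = 6), with a log2 fold change of 0.07 ± 0.52 (SE, adjusted p = 0.952, edgeR) whose sign changed with the scaling. Ndufa4l2 was 6.22 ± 6.80 and 10.4 ± 5.92 CPM, a log2 fold change of -0.74 ± 1.21 (SE, adjusted p = 0.743, edgeR).

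**Figure D2:**
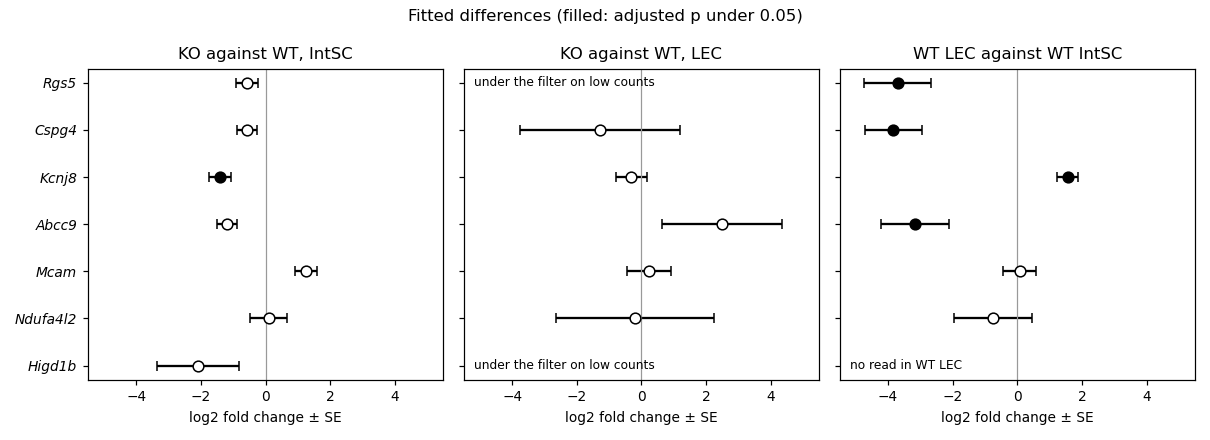
Fitted log2 fold change ± SE (x axis) of each pericyte marker in KO against WT IntSCs, KO against WT LECs and WT LECs against WT IntSCs; filled points have an edgeR adjusted p under 0.05. Kcnj8 is at -1.41 in KO IntSCs and at 1.55 in WT LECs, Abcc9 at -1.21 and -3.16 in the same comparisons, and the LEC comparison of genotypes has the widest errors.

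The order of the group means differed between the genes. Rgs5 and Cspg4 ran from WT IntSC through KO IntSC and WT LEC to KO LEC, and in both the neighbours KO IntSC and WT LEC did not overlap while the IntSC groups overlapped with each other, as did the LEC groups. Kcnj8 ran from WT LEC (105 CPM) through KO LEC (80.0 CPM) and WT IntSC (36.0 CPM) to KO IntSC (13.5 CPM), and only the last step was free of overlap. Abcc9 ran from WT IntSC through KO LEC and KO IntSC to WT LEC, Mcam from KO IntSC through KO LEC and WT LEC to WT IntSC, and Ndufa4l2 and Higd1b were highest in IntSCs. In these 4 genes all neighbouring groups overlapped.

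Whether the genotype difference itself differed between IntSCs and LECs was tested as an interaction over all 18 libraries. Of the 7 genes 0 passed the threshold with edgeR, 2 had an unadjusted p under 0.05, and 1 passed with DESeq2 (Rgs5, adjusted p = 0.0105). The background share was 1.7% with edgeR, or 238 of 14015 genes tested, and 7.3% with DESeq2, or 1023 genes. For Kcnj8 the difference between the log2 fold changes, IntSC minus LEC, was -1.02 ± 0.58 (SE, adjusted p = 0.422, edgeR), for Abcc9 it was -3.64 ± 1.63 (SE, adjusted p = 0.279, edgeR), for Mcam 1.09 ± 0.72 (SE, adjusted p = 0.527, edgeR) and for Rgs5 5.24 ± 1.77 (SE, adjusted p = 0.147, edgeR). The median over all genes was 0.24, and 0.13 with RLE factors. The value of Rgs5 rests on KO LEC libraries at or near 0 and is no measured fold. A genotype difference particular to IntSCs was therefore not shown for any of the 7 genes by edgeR.

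Other genes of mural cells were set beside the 7. The alternatives were examined for the 7 genes and not for single genes of this or the following lists. How far the calls of those genes depend on the processing was therefore not tested. Of 20 other mural cell genes 17 were tested in IntSCs, and 1 passed the threshold, beside 1.47% of all genes tested. Rgs4, a relative of Rgs5 from the same protein family, rose in KO. It was 38.5 ± 12.2 CPM (SD, n = 6) in WT and 92.0 ± 28.4 CPM in KO (SD, n = 5), the lowest KO library (55.33 CPM) just above the highest WT library (55.26 CPM), with a log2 fold change of 1.26 ± 0.27 (SE, adjusted p = 0.0206, edgeR). Pdgfrb, the receptor that names the sorted cells and whose promoter drives the Cre, was 484 ± 164 CPM in WT and 878 ± 187 CPM in KO, with a log2 fold change of 0.86 ± 0.23 (SE, adjusted p = 0.0613, edgeR). Notch3, the Notch receptor of mural cells, was 150.0 ± 38.3 and 253 ± 91.8 CPM (edgeR adjusted p = 0.150). The median log2 fold change of the 17 genes was 0.34, with 11 above 0 and 6 below, beside -0.59 for the 7 pericyte markers and 0.0026 for all genes.

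Summed over the list, the other mural genes gave between 802 and 1373 CPM in WT and between 1471 and 1916 CPM in KO IntSCs, without overlap. Pdgfrb made up much of this sum, and without it, a choice made after seeing the values, the ranges were 518 to 746 and 603 to 1011 CPM and overlapped. The 7 pericyte markers summed to between 235 and 417 CPM in WT and between 184 and 330 CPM in KO IntSCs. In this sum Mcam, higher in KO, offsets the 5 members with negative fold changes, and a sum without Mcam was not formed. In WT LECs against WT IntSCs, 5 of the 17 other mural genes tested passed the threshold, beside 22.6% of all genes. Notch3, Pdgfrb, Cox4i2 and Pde5a were lower in LECs, and Gja4, a connexin that endothelial cells share, was higher, with a median of -2.43 over the 17 genes.

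**Figure D3:**
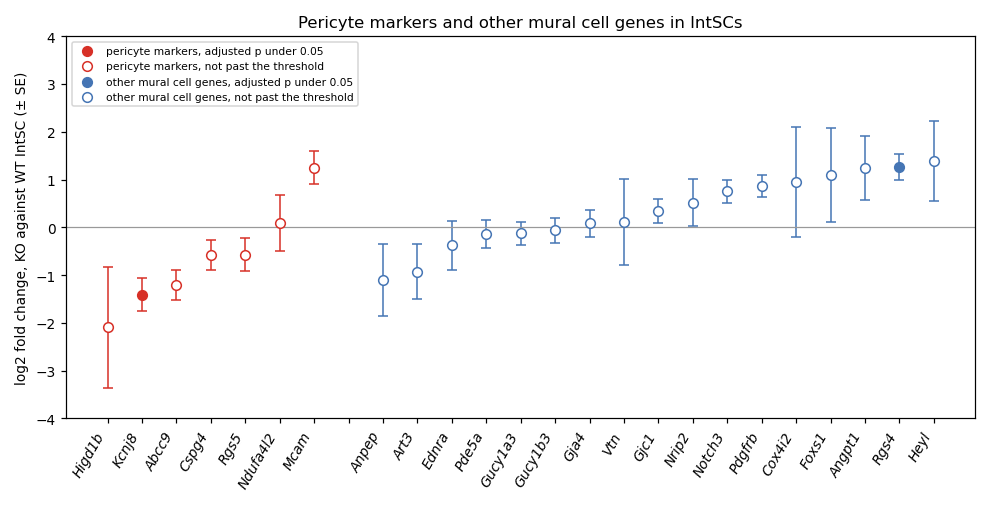
Log2 fold change ± SE (y axis) of KO against WT IntSCs for the 7 pericyte markers (red) and 17 other mural cell genes (blue), sorted by value; filled points have an edgeR adjusted p under 0.05. Kcnj8 (-1.41) and Rgs4 (1.26) are the filled points, 5 of the 7 pericyte markers are below 0 and 11 of the 17 other mural genes are above 0.

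Of 10 close relatives of the 7 genes, 7 could be tested in IntSCs. Rgs4, already counted among the other mural genes, was the 1 that passed, beside 1.47% of all genes tested. Rgs2, which also limits G protein signalling in vascular muscle, was 209 ± 73.9 CPM in WT and 220 ± 66.4 CPM in KO (edgeR adjusted p = 0.980). Higd1a, the widely expressed relative of Higd1b, was 46.8 ± 11.6 and 64.8 ± 9.70 CPM (edgeR adjusted p = 0.555), and Ndufa4, the constitutive relative of Ndufa4l2, was 36.1 ± 21.6 and 47.0 ± 18.7 CPM (edgeR adjusted p = 0.886). Their median log2 fold change was 0.20, with 6 above 0 and 1 below.

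Among genes of the exchange between pericytes and endothelium, 1 of 12 tested passed in IntSCs, beside 1.47% of all genes tested. Jag1, a Notch ligand, rose from 38.4 ± 18.7 CPM in WT (SD, n = 6) to 90.6 ± 22.5 CPM in KO (SD, n = 5), with a log2 fold change of 1.24 ± 0.30 (SE, adjusted p = 0.0390, edgeR). The list had 10 genes above 0 and 2 below with a median of 0.85. It shares Pdgfrb, Notch3, Angpt1 and Ednra with the other mural genes and Tek and Tie1 with the pan-endothelial markers. The medians of these lists are therefore not independent. Among 11 hypoxia response genes, set beside Ndufa4l2 and Higd1b, 1 passed, at the same background share. Adm, the vasodilator peptide adrenomedullin, rose from 49.4 ± 20.7 to 147 ± 33.7 CPM, with a log2 fold change of 1.58 ± 0.26 (SE, adjusted p = 0.00246, edgeR). Its list had a median of 0.61, with 9 above 0 and 2 below. In LECs, 0 genes of any of these lists passed the threshold between KO and WT with edgeR, beside 0.0658% of all genes tested. The interaction passed for 2 of 18 other mural genes, Ednra and Pde5a, beside 1.7% of all genes tested. Of 13 signalling genes it passed for 2, Pdgfb and Ednra, and of the relatives and hypoxia genes for 0. The edgeR adjusted p was 0.0357 for Ednra, 0.0430 for Pde5a and 0.0182 for Pdgfb. Their means in KO LECs were 0, 0.041 and 1.02 CPM. Pdgfb was 43.5 CPM in WT LECs (edgeR adjusted p = 0.280 between the LEC genotypes).

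Markers of other cells that the IntSC sort could hold were examined in the same comparison of IntSCs, where 1.47% of all genes tested passed. Of 15 smooth muscle genes 1 passed, Casq2, the calcium buffer calsequestrin, just under the threshold (edgeR adjusted p = 0.0493). It fell from 27.1 ± 10.3 to 6.48 ± 3.87 CPM, while the median of the list was 0.26 and 11 of the 15 were above 0. Of 14 fibroblast genes 2 fell, Cd34 from 1707 ± 563 to 824 ± 74.3 CPM (edgeR adjusted p = 0.00688) and Col3a1 from 2269 ± 580 to 1197 ± 422 CPM (edgeR adjusted p = 0.0438), with a median of -0.47. Their sum was between 14151 and 19172 CPM in WT and between 8475 and 14603 CPM in KO IntSCs.

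Of the 9 pan-endothelial, 8 blood endothelial and 8 LEC markers tested in IntSCs 0 passed, with medians of 0.84, 0.54 and 0.20, and 8 of the 9 pan-endothelial markers were above 0. The leading markers were Eng at 170.5 and 160.3 CPM in WT and KO, Esam at 159.5 and 295 CPM, Plvap at 159 and 170.2 CPM, Flt1 at 54.9 and 109 CPM, Pdpn at 239 and 329 CPM and Nrp2 at 129.7 and 173 CPM. Pecam1, the CD31 antigen depleted in this sort, was at 37.7 and 88.1 CPM (edgeR adjusted p = 0.101), while Prox1, the factor that defines LECs, was at 0.079 and 0.080 CPM. The 3 interstitial cell of Cajal markers tested were all below 0, with a median of -0.96. The list summed to between 50.8 and 114 CPM in WT and between 16.3 and 54.5 CPM in KO. Edn3 was at 40.8 and 7.43 CPM in WT and KO, Etv1 at 18.5 and 9.47 CPM and Ano1 at 15.2 and 11.7 CPM. Kit, which defines these cells, was at 0.025 and 0.36 CPM. Leukocyte markers summed to at most 22.5 CPM in an IntSC library, enteric glia markers to at most 27.6 CPM and epithelial markers to between 0.86 and 136 CPM, and of the 2, 2 and 6 of them that could be tested 0 passed. Among them Ptprc, the CD45 antigen, was at 0.73 and 1.83 CPM, and Gfap, Cdh19, Erbb3 and Olfm4 had no read. How far these cell types account for the values of Kcnj8, Abcc9 and Mcam was not tested.

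**Figure D4:**
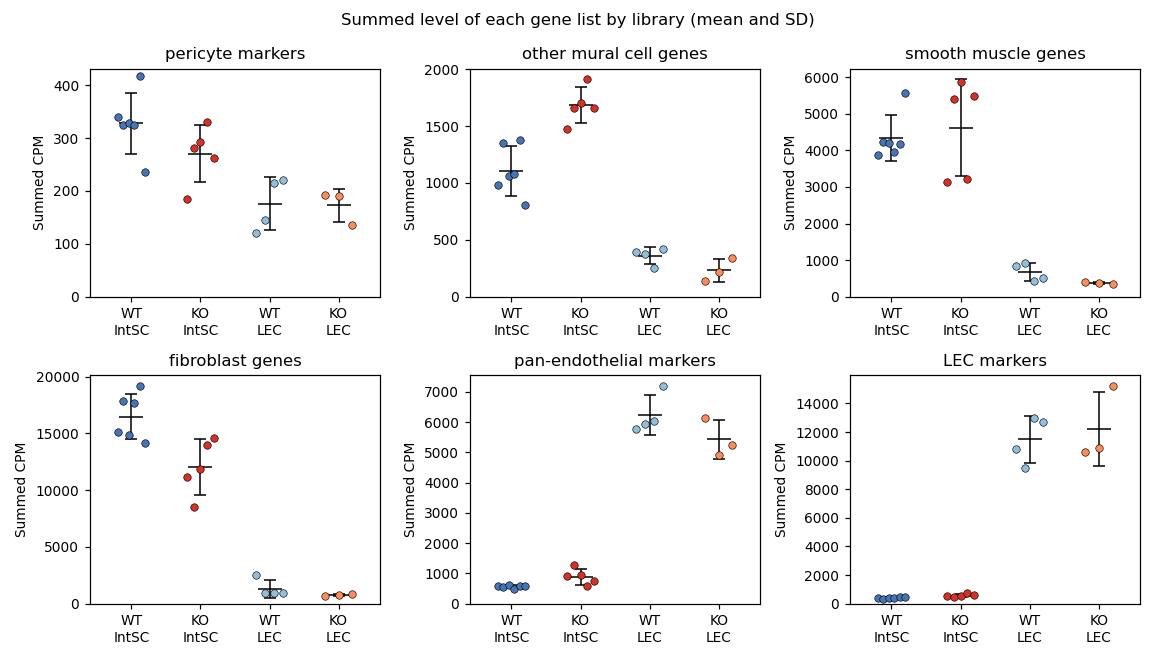
Summed CPM (y axis, linear from 0, a separate scale for each list) of the pericyte markers, other mural cell genes, smooth muscle genes, fibroblast genes, pan-endothelial markers and LEC markers in each library of the 4 groups; points are libraries, and the line and bar give mean and SD. The sum of the pericyte markers overlaps between WT and KO IntSCs, that of the other mural genes does not, and the endothelial and LEC markers are far higher in LECs.

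Whether the 7 genes rose and fell together from library to library was examined within IntSCs. With the group means removed, the Pearson r of log2(CPM + 1) over 11 libraries had a median of -0.08 over the 21 pairs of genes, and 8 pairs were above 0. The highest r was 0.60, between Mcam and Ndufa4l2 (permutation p = 0.0491, adjusted p = 0.516; Spearman rho = 0.50, p = 0.122, adjusted p = 0.835), and it was 0.44 without the 2 libraries farthest from the median. The lowest was -0.74, between Ndufa4l2 and Higd1b (permutation p = 0.0115, adjusted p = 0.242; Spearman rho = -0.42, p = 0.202, adjusted p = 0.835), and it was -0.14 without such libraries. Of the 21 pairs, 0 had an adjusted p under 0.05.

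The genes most like each of the 7 were also listed. Of 10569 genes with a mean of at least 5 CPM, the one most like Rgs5 over the 11 libraries was Sf3b1, a splicing factor (r = 0.87), followed by Dennd4c and Zcchc11. Most like Cspg4 were Rbm18, Anxa7 and Vegfc, the lymphatic growth factor (r = 0.90 for each). Kcnj8 was most like Gm7367 (r = 0.93), Ctbs and B3gntl1, and Abcc9 most like Hint1, C4a and Kri1 (r = 0.92 for each). Mcam was most like Spty2d1 (r = 0.95), H1f0 and Rreb1, Ndufa4l2 most like 4933439C10Rik (r = 0.94), Plxnb2 and Pitpna, and Higd1b most like Ppm1a (r = 0.92), Pphln1 and Prg4. The libraries share depth and scaling, the highest of so many r over 11 libraries is large in any case, and the values are a description only.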

How the data were processed

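RNA from sorted cells was made into 3′ end libraries with the LEXOGEN Quant-Seq kit. Bowtie2, edgeR and the build mm10 are named in the submitters' processing notes, and TopHat and Cufflinks in the methods; the counting program, its strand setting and the annotation are not given in the sources used here. The authors deposited raw counts, 1 table per library with 23282 rows and 23238 distinct symbols, and counts of the 35 repeated symbols were summed. The sample titles gave each group and replicate number.

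The test was edgeR 4.0.16 under R 4.3.3 (TMM, filterByExpr, robust quasi-likelihood test, Benjamini-Hochberg over all genes tested, threshold 0.05), with only the groups compared in each fit and all 4 groups for the interaction. SEs were derived from the F statistic. Levels are CPM with TMM factors over 18 libraries. Correlations used 100000 permutations with scipy 1.17.1. Floors of 3 counts cover counting error only. The procedure was tested on simulated data.

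All 7 members were named; for each list (other mural, smooth muscle, fibroblast, relatives, signalling, hypoxia and markers of other cells) up to 4 genes past the threshold with the smallest p were named, or the 2 highest, and the 3 genes most like each member. Other genes named were chosen after their values were seen. The members and lists were chosen with earlier results of these data known. Alternatives were DESeq2 1.42.0, limma-voom (limma 3.58.1), other factors and filters, the scale without Rn45s, a replicate block, all 4 groups in one fit, Xist as a covariate and each library left out.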

Additional observations from a re-analysis of the deposited data

Results flagged for a closer look

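Of 20 groups of 4 to 6 libraries examined for a library far from the rest, about 1 would be expected by chance and 2 were found. Rgs5 was at 27.1 CPM in WT LEC 1, against 0.19 to 4.20 CPM in the other WT LECs. Higd1b was at 34.0 CPM in WT IntSC 3, against 0 to 6.11 CPM in the other WT IntSCs.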

How the results depend on the processing

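Over the fitted fold changes of the 7 genes, 479 of the alternative values kept their direction and their side of the threshold, 30 lost the threshold, 11 gained it and 20 changed sign; the causes were not tested. In IntSCs the number of the 7 genes called, 1, became 3 with DESeq2, 2 with limma-voom and with upper-quartile factors, and 0 with the replicate block and with all 4 groups in one fit, and ranged from 0 to 2 with a library left out. Kcnj8 lost its call with limma-voom (adjusted p = 0.0793), no filter (0.0629), all 4 groups in one fit (0.151) and Xist as a covariate (0.0562). Abcc9 gained one with DESeq2 (0.0132), limma-voom (0.0285), upper-quartile factors (0.0489) and no filter (0.0463), and Mcam with DESeq2 (0.0264), limma-voom (0.0328) and Xist as a covariate (0.0106). Genes called in IntSCs numbered 376 with DESeq2 and 27 with all 4 groups in one fit, and 99 to 186 with a library left out. In LECs the 7 calls became 309 with DESeq2, 18 with limma-voom, 32 without a filter, 20 with a mean count of at least 10 and 538 with all 4 groups in one fit, and 0 to 16 with a library left out.

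In WT LECs against WT IntSCs, 3 of the 7 genes were called without a filter, where Rgs5 (0.0960) and Abcc9 (0.110) were lost. The interaction had 1023 calls with DESeq2 (1 of the 7 genes) and 140 with limma-voom, and 161 to 461 with a library left out, where 0 to 1 of the 7 genes was called (Cspg4 without KO LEC 2, adjusted p = 0.0440).

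The sign changes concerned values near 0 or with wide errors. In WT LECs against WT IntSCs, Mcam was -0.0135 with DESeq2, -0.0134 with RLE factors and -0.0831 with upper-quartile factors. With a library left out it was -0.25 to 0.33 there and -0.0781 to 0.58 between LEC genotypes, where Kcnj8 was -0.64 to 0.0853 and Ndufa4l2 -6.49 to 0.77. Ndufa4l2 was -0.18 to 0.42 in IntSCs and -0.62 to 6.55 in the interaction, and Cspg4 was -0.0344 to 7.59 in the interaction.

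The replicate numbers were not used as pairs, since the labels do not say whether a number shared by the 2 cell types marks a mouse. With group means removed, same-numbered WT and KO IntSC libraries had a mean correlation of 0.0098 and LEC libraries one of -0.00367. Libraries of the 2 genotypes cannot share a mouse, so these values say nothing of pairing between the cell types. Between WT IntSCs and WT LECs all 4 same-numbered pairs were above 0, at 0.022 to 0.0382, against a mean of -0.00549 for other pairs. All were under 0.1, the value set for pairing. Between KO IntSCs and KO LECs the mean of same-numbered pairs was 0.000521. Values this small cannot decide whether same-numbered libraries of the 2 cell types came from the same mouse. Between genotypes the replicate block joins libraries of different mice by number alone, and the labels do not tie a number to an experiment. A call lost under the block in KO against WT therefore cannot be read as a result of pairing. With the replicate block 0 of the 7 genes were called in IntSCs (Kcnj8 -1.45, adjusted p = 0.126), 2 in WT LECs against WT IntSCs (Cspg4 and Kcnj8, with Rgs5 at an adjusted p of 0.0543, Abcc9 at 0.111 and Higd1b at 0.116), and the calls over all genes were 3 in LECs, 1596 between WT LECs and WT IntSCs and 16 for the interaction.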
